A study of Drosophila melanogaster with 9 samples.

Results

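The Niemann-Pick sterol transport genes of the fly are 2 genes of the Npc1 type (Npc1a and Npc1b) and 8 of the Npc2 type (Npc2a to Npc2h). They were taken as every gene of the deposited count table whose name in the authors' annotation sheet begins with Npc1 or Npc2, which gave 10 of the 14865 listed genes. All 10 passed the filter on low counts. The RNA came from whole Drosophila melanogaster adults aged 8 days after eclosion and kept on food with 8% yeast and 9% sugar. The 4 mutant libraries carry an allele of E78A, the nuclear receptor made from Eip78C, which the authors' sample sheet names E7818.37. The 5 control libraries are w1118 in that sheet. What the allele alters, the sex of the flies and the number of flies in a library are not given in the labels, nor whether the mutant stock shares the background of w1118, so the allele and other differences between the stocks cannot be told apart. Nothing says that libraries came from separate crosses or vials, so the p-values rest on a spread between samples that may be technical only.

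Insects cannot make sterols and take them from food. NPC1 proteins are large membrane proteins with a sterol-sensing domain, and NPC2 proteins are small secreted or lysosomal proteins that bind sterol in a pocket. In late endosomes and lysosomes NPC2 hands sterol to NPC1, which moves it out through the membrane, and loss of either gene in humans gives Niemann-Pick type C disease. In the fly Npc1a does this work in most tissues and is needed for the making of ecdysteroid hormones from sterol, while Npc1b serves the uptake of sterol in the midgut, like the mammalian protein NPC1L1. The fly has a whole family of Npc2 genes where mammals have a single one, and some fly NPC2 proteins bind bacterial cell wall components as well as lipids. The comparison asks how far transcripts of this machinery differ in flies with a mutant E78A, in a study of fat uptake by the gut and body lipids.

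Library totals ran from 16556267 to 19093675 counts. For 4 libraries the genotype tag contradicts the title (mutant replicates 3 and 4, control replicates 4 and 5), and the sample sheet, which disagreed with 0 titles, was followed. Eip78C itself lay between 8.86 and 12.4 CPM (counts scaled to the size of the library) in the mutant libraries and between 8.57 and 15.6 CPM in the controls (log2 fold change 0.0047, edgeR adjusted p = 0.993), a count over the whole gene that does not check the labels, since the altered part of the gene is not stated. Genes named as female markers summed to at most 16.9 CPM in a mutant library and 20.5 CPM in a control library, against 4913 to 6481 CPM in the mutants and 4253 to 8207 CPM in the controls for accessory gland markers, and such levels are those of mostly or all male flies. Within groups, replicates differed beyond counting noise (chi-square per degree of freedom 17.9 to 44.8), and no library was counted as a copy of another.

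None of the 10 genes passed the test in the comparison of the mutant libraries with the controls: 0 were higher and 0 lower at an edgeR adjusted p under 0.05, beside shares of 0.708% higher and 0.927% lower among the 13274 tested genes. The gene nearest to the threshold was Npc2a, 1.37-fold higher in the mutants. The other 2 with an unadjusted p under 0.05 were Npc2h, which averaged higher, and Npc2d, which averaged lower, so that 3 of 10 members lay under that limit, as did 15.1% of all tested genes (2004 genes). DESeq2 called 1 member, Npc2a, beside shares of 1.76% higher and 1.94% lower among all tested genes. When the 8 libraries that share a replicate number in the authors' sheet were compared in pairs, by a fit with that number as a block, Npc2a and Npc2h were called higher and no member lower, beside shares of 1.8% higher and 2.01% lower among all tested genes. No member had mutant and control libraries that did not overlap, against 6.16% of tested genes. In the 5 libraries whose title and tag agree, 0 members were called by edgeR. The median log2 fold change of the 10 genes was 0.030, beside -0.0024 over all tested genes.

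**Figure D1:**
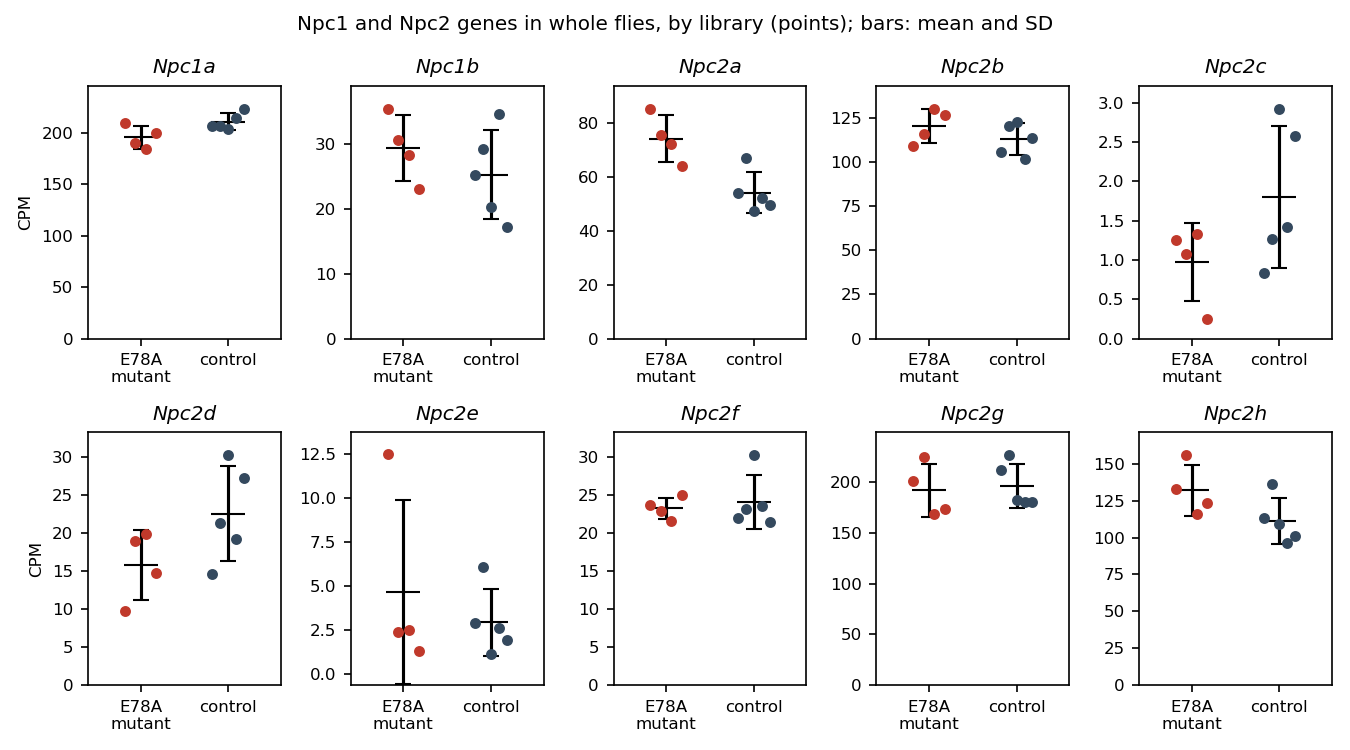
CPM of each Npc1 and Npc2 gene in the 4 E78A mutant libraries (left in each panel) and the 5 control libraries (right), each point a library and each bar the mean with its SD, on a vertical axis of its own for each gene. Npc2a has the least overlap, with mutant libraries from 64.1 to 85.2 CPM and controls from 47.4 to 67.0 CPM, while Npc2e in the mutants is spread by a single library at 12.5 CPM.

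Npc1a (FBgn0024320) lies on chromosome 2L at 10213812 to 10221216 on the minus strand and has 7 annotated transcripts of 12 exons each, for proteins of 1283 to 1287 residues. It codes for the NPC1 protein used by most cells. The 4 mutant libraries held 209, 189, 184 and 199 CPM, and the 5 control libraries 206, 206, 203, 214 and 223 CPM. The highest mutant library lay among the controls and the other 3 lay under all of them. The means were 195 ± 11.1 CPM in the mutants (SD, n = 4) and 211 ± 8.04 CPM in the controls (SD, n = 5), a log2 fold change of -0.11 (SE 0.066, 95% interval from -0.25 to 0.036, edgeR adjusted p = 0.478). A difference in either direction as large as that of Npc2a lies outside this interval. By pairs of the sample sheet it was higher in the mutant library in 1 of 4 pairs, with ratios from 0.857 to 1.01.

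Npc1b (FBgn0261675, X at 20934869 to 20939503, plus strand, 6 exons, a protein of 1254 residues) is the NPC1 gene of the midgut, where it is needed for sterol uptake from food. Its level was 35.3, 30.6, 28.3 and 23.0 CPM in the mutant libraries and 25.2, 29.1, 20.3, 34.5 and 17.1 CPM in the controls, with wide overlap. The mean was 29.3 ± 5.11 CPM in the mutants (SD, n = 4) and 25.2 ± 6.92 CPM in the controls (SD, n = 5), and the log2 fold change of 0.21 (SE 0.19, edgeR adjusted p = 0.625) had a 95% interval from -0.19 to 0.62. That value depended on single libraries, at 0.10 without control replicate 5, 0.11 without mutant replicate 1 and 0.35 without control replicate 4. The 17 midgut marker genes, none of them at 0, summed to 7438 to 11975 CPM in the mutant libraries and 9596 to 11998 CPM in the controls, and the part of gut content in the level of Npc1b was not tested. In whole flies, fewer cells of a type and less RNA per cell cannot be told apart.

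Npc2a (FBgn0031381) is a gene of 1 exon on 2L at 1988290 to 1988940, plus strand, and codes for a protein of 148 residues, the fly counterpart of mammalian NPC2. In the mutant libraries it was at 85.2, 75.5, 72.1 and 64.1 CPM, and in the control libraries at 54.2, 67.0, 47.4, 52.0 and 49.7 CPM. The groups met at 1 point only, with mutant replicate 4 under control replicate 2. The mean was 74.2 ± 8.73 CPM in the mutants (SD, n = 4) and 54.1 ± 7.65 CPM in the controls (SD, n = 5), with a log2 fold change of 0.46 (SE 0.11, 95% interval from 0.22 to 0.70). Its edgeR p of 0.00131 ranked 276 of 13274 and came to 0.0629 after adjustment, short of the threshold. With the replicate block the log2 fold change was 0.41 (SE 0.078, 95% interval from 0.24 to 0.59, edgeR adjusted p = 0.0190), and DESeq2 gave 0.46 (adjusted p = 0.00731). Without control replicate 2 the edgeR adjusted p was 0.0128, at a log2 fold change of 0.55. The call thus changed with this library in edgeR without the block, and with the choice of fit when all libraries were kept. In the 5 libraries whose title and tag agree, it was at 0.52 (edgeR adjusted p = 0.586). In the authors' deposited table Npc2a stands at a log2 value of 0.44, with SE 0.11 and an adjusted p of 0.00411.

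Npc2b (FBgn0038198, 3R at 14089517 to 14092425, plus strand, 159 residues), which acts together with Npc2a in keeping sterol levels and ecdysteroid supply, was at 109, 116, 129.8 and 127 CPM in the mutant libraries and at 106, 120.1, 123, 102 and 113 CPM in the controls. The groups overlapped over most of their range. Its mean was 120.2 ± 9.75 CPM in the mutants (SD, n = 4) and 113 ± 8.96 CPM in the controls (SD, n = 5), a log2 fold change of 0.09 (SE 0.080, 95% interval from -0.082 to 0.27, edgeR adjusted p = 0.626).

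**Figure D2:**
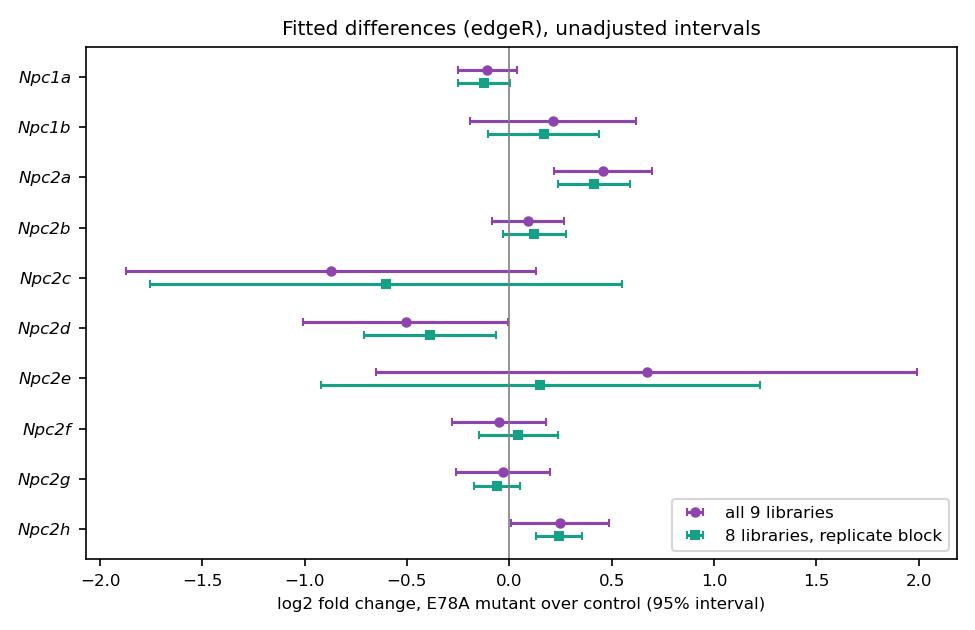
Log2 fold change of each gene, E78A mutant over control, with its unadjusted 95% interval, from edgeR on all 9 libraries (circles) and on the 8 paired libraries with a replicate block (squares). The intervals of Npc2a and Npc2h lie above 0 in both fits and that of Npc2d below 0 in both, while those of Npc2c and Npc2e are the widest.

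Npc2g and Npc2h are neighbours on 3R, both on the minus strand and 215 bases apart, with a joint span of 1686 bases. Npc2g (FBgn0039800, 30744605 to 30745263, 1 exon, 159 residues) had 201, 224, 169 and 173 CPM in the mutant libraries and 212, 226, 182, 180.3 and 180.6 CPM in the controls. Mutant replicates 3 and 4 lay under every control library, and the other 2 mutant libraries lay within the control range. The means of 192 ± 26.02 CPM in the mutants (SD, n = 4) and 196 ± 21.4 CPM in the controls (SD, n = 5) gave a log2 fold change of -0.03 (SE 0.10, 95% interval from -0.26 to 0.20, edgeR adjusted p = 0.919).

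Npc2h (FBgn0039801, 30745479 to 30746290, proteins of 130 to 157 residues), whose protein binds bacterial lipopolysaccharide and peptidoglycan, had 133, 156, 116 and 123 CPM in the mutant libraries and 113, 136, 109, 96.6 and 101 CPM in the controls. All 4 mutant libraries lay above 4 of the 5 controls, and mutant replicate 2 above all of them. Its mean was 132 ± 17.2 CPM in the mutants (SD, n = 4) and 111 ± 15.5 CPM in the controls (SD, n = 5), with a log2 fold change of 0.25 (SE 0.11, 95% interval from 0.0059 to 0.49, edgeR adjusted p = 0.323). With the replicate block the estimate was almost the same, 0.24, but its SE was 0.051 and its edgeR adjusted p 0.0300. In the 5 libraries whose title and tag agree, the log2 fold change was 0.27 (edgeR adjusted p = 0.895). The authors' deposited table gives 0.24 with an adjusted p of 0.362.

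The pairs of the sample sheet were also compared directly. The mutant library held more Npc2h than its control in 4 of 4 pairs, with ratios from 1.14 to 1.223, and more Npc2a in 4 of 4 pairs, with ratios from 1.13 to 1.57. Npc2g was lower in the mutant library in 4 of 4 pairs, but only slightly, with ratios from 0.936 to 0.991. Thus 2 of 10 members were higher in all pairs, as were 12.6% of the tested genes, and 1 of 10 was lower in all pairs, as were 13% of them.

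**Figure D3:**
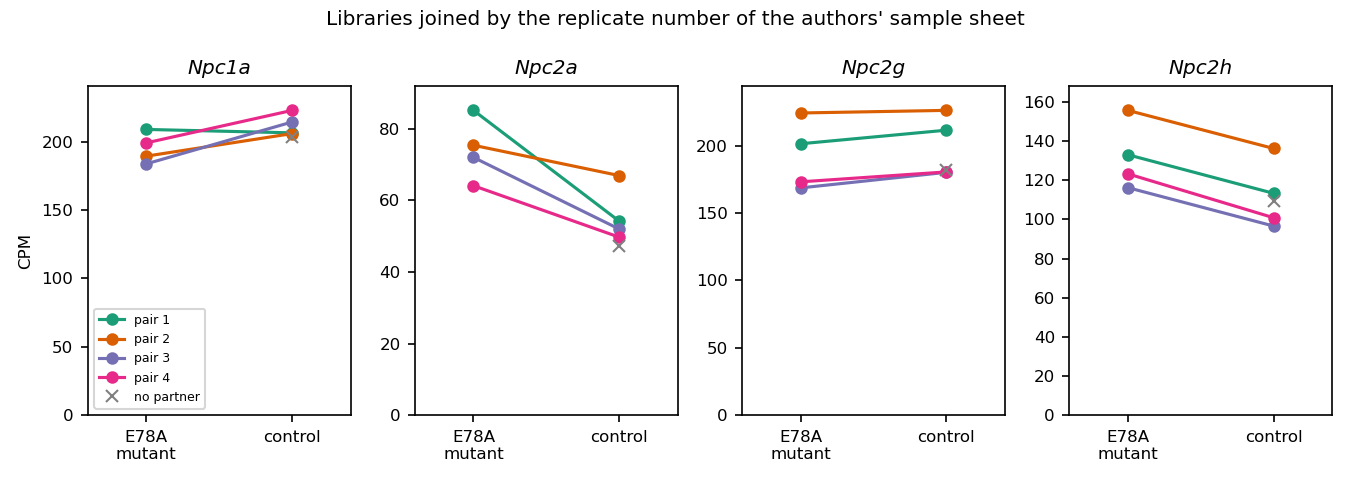
CPM of Npc1a, Npc2a, Npc2g and Npc2h in mutant libraries (left) and control libraries (right), with lines joining libraries that carry the same replicate number in the authors' sample sheet and a cross for the control library with no partner. All 4 lines drop toward the control for Npc2a and Npc2h, whereas for Npc2g they are almost flat.

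Levels of the neighbours Npc2g and Npc2h varied together from library to library. After each group's mean was taken off, their log2 CPM correlated at r = 0.93 (rho = 0.90) over the 9 libraries, and at 0.83 without the 2 libraries farthest from the median. Over the 28 pairs of members with a mean of at least 5 CPM the correlations ran from -0.58 to 0.93, with a median of -0.085, and 12 were positive. Npc2a correlated at 0.74 with Npc2g and at 0.66 with Npc2h, the second of which was 0.41 without the 2 farthest libraries. These are descriptions over libraries that also share replicate numbers, and they carry no test.

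Set against each other within a library, Npc2h stood higher over Npc2g in every mutant library than in any control library. The ratio of their counts was 0.660, 0.694, 0.689 and 0.712 in the mutants and 0.536, 0.602, 0.601, 0.536 and 0.558 in the controls, with means of 0.689 ± 0.0214 (SD, n = 4) and 0.567 ± 0.0332 (SD, n = 5). Npc2a over Npc2g was from 0.336 to 0.427 in the mutants and from 0.256 to 0.296 in the controls. These were 2 of the 45 ratios between members, and in all others the groups overlapped. How often the groups lie apart in ratios of other genes was not computed. In CPM of single genes they lay apart for 6.16% of the tested genes, so 2 of 45 ratios is not read as a trait of the members. Npc2a over Npc1a, the sterol carrier over its membrane partner, averaged 0.380 ± 0.0392 in the mutants (SD, n = 4) and 0.257 ± 0.0406 in the controls (SD, n = 5), with mutant replicate 4 at 0.322 and control replicate 2 at 0.325. A ratio shows unequal levels and not which of the genes differed, and with 45 of them looked at no test is attached. The sources used here do not say how reads that fit more than 1 Npc2 gene were counted.

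Of the remaining Npc2 genes, Npc2f differed little, Npc2d averaged lower in the mutants, and Npc2c and Npc2e were too low or too variable to compare closely. Npc2f (FBgn0039154, 3R at 24137895 to 24140936, plus strand, 170 residues) was at 23.3 ± 1.395 CPM in the mutants (SD, n = 4) and 24.1 ± 3.55 CPM in the controls (SD, n = 5), with a log2 fold change of -0.05 (SE 0.11, 95% interval from -0.28 to 0.18, edgeR adjusted p = 0.866). Its mutant libraries ran from 21.7 to 25.0 CPM, and its control libraries from 21.5 to 30.3 CPM, the highest being control replicate 3. The sign of that fold change turned without that library, at 0.044.

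Npc2c, Npc2d and Npc2e form a cluster of 7805 bases on 3R. Npc2e (FBgn0051410, 10053332 to 10054348, plus strand, 168 residues) comes first, Npc2d (FBgn0037782, 10055356 to 10056083, minus strand, 173 residues) follows after 1007 bases, and Npc2c (FBgn0037783, 10060252 to 10061136, plus strand, 165 residues) after another 4168 bases. By mean CPM per kilobase of exon, Npc2e ranked 9 and Npc2c 10 of the 10 members in both groups. Npc2d ranked 7 in the mutants and 6 in the controls.

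Npc2d was at 9.78, 19.0, 19.9 and 14.7 CPM in the mutant libraries and at 14.6, 21.4, 30.2, 19.1 and 27.2 CPM in the controls. The groups overlapped between 14.6 and 19.9 CPM. The mean was 15.8 ± 4.62 CPM in the mutants (SD, n = 4) and 22.5 ± 6.25 CPM in the controls (SD, n = 5), and the log2 fold change was -0.51 (SE 0.23, 95% interval from -1.01 to -0.0043, edgeR adjusted p = 0.328). With the replicate block it was -0.39 (SE 0.14, 95% interval from -0.71 to -0.066, edgeR adjusted p = 0.193). The authors' deposited table gives -0.46 with an adjusted p of 0.221. Npc2c was lowest of all, with 67 counts over the 4 mutant libraries and 162 over the 5 controls. Its CPM were 1.25, 1.07, 1.32 and 0.243 in the mutants and 0.8295, 1.26, 2.92, 1.42 and 2.57 in the controls, for a log2 fold change of -0.87 (SE 0.46, edgeR adjusted p = 0.408). Mutant replicate 4 held 4 counts of it, and the 95% interval from -1.87 to 0.13 spans a strong fall as well as no difference.

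Of the 15 other tested genes within 50 kb of that cluster, 3 were called lower in the mutants and 0 higher, beside 0.927% lower and 0.708% higher among all tested genes. CG3909 was at 16.7 ± 1.11 CPM in the mutants (SD, n = 4) and 31.8 ± 3.70 CPM in the controls (SD, n = 5), with a log2 fold change of -0.93 (edgeR adjusted p = 0.000449). For mtTFB2, a mitochondrial transcription factor, the log2 fold change was -0.95 (edgeR adjusted p = 0.00151), and for the non-coding gene CR45205, -2.24 (edgeR adjusted p = 0.00607). CR45205 (10060666 to 10061978) overlaps Npc2c from the other strand, and CR44192 (log2 fold change -0.29) likewise overlaps Npc2e. The libraries keep the strand, but whether the counting used it is not given. Reads in the stretch shared by Npc2c and CR45205, or by Npc2e and CR44192, thus cannot be told apart.

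Around the other members few genes were called. CG4238, 20918 bases from Npc2a, was higher in the mutants (log2 fold change 0.42, edgeR adjusted p = 0.00878) and was 1 of 17 tested genes within 50 kb. Next to Npc2a, Got2 had a log2 fold change of 0.30 (edgeR adjusted p = 0.585). Within 50 kb of Npc1a, Npc1b, Npc2b, Npc2f, Npc2g and Npc2h there were 0 called genes, among 5 to 32 tested. The nearest tested genes there were CG4901 (0.17) and Prosalpha6 (0.04) by Npc1a, CG11227 (-0.08) and Ser6 (0.42) by Npc1b, foxo (0.09) and CCHa1 (-0.18) by Npc2b, Sec10 (-0.08) and Kal1 (0.01) by Npc2f, CG15543 (-0.10) by Npc2g and zfh1 (0.22) by Npc2h, given as log2 fold changes. Fancl, the nearest beside Npc2e, was at -0.26, and CR42874 by Npc2a and CG33784 by Npc2c had too few counts to test.

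Npc2e varied most between libraries. The mutant libraries held 12.5, 2.38, 2.48 and 1.34 CPM and the controls 2.88, 6.10, 1.15, 2.59 and 1.94 CPM. Mutant replicate 1 stood above all other libraries, and the other 3 mutant libraries lay within the control range. The mean of 4.66 ± 5.22 CPM in the mutants (SD, n = 4), against 2.93 ± 1.89 CPM in the controls (SD, n = 5), gave a log2 fold change of 0.67 (SE 0.61, edgeR adjusted p = 0.640), and without mutant replicate 1 it was -0.50. The NPC2 protein of this gene binds bacterial cell wall components, and in cultured fly cells it raises output of the Imd immune pathway.

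In the same library, antimicrobial peptide genes were high. Their sum over 14 genes was 763, 99.8, 129 and 145 CPM in the mutant libraries and 113, 160.2, 136, 133 and 156 CPM in the controls, and mutant replicate 1 was the highest library for 9 of the 14. DptA, an Imd target, was at 108 CPM there and at 1.83 to 5.72 CPM in the other 8 libraries. AttC was at 225 CPM there and at 12.6 to 22.4 CPM elsewhere. Over the 9 libraries log2 Npc2e and the log2 sum had r = 0.75 and rho = 0.25, and without mutant replicate 1 r was 0.075 and rho -0.071, so the relation rests on that library. The link was looked for after the values were seen, and a part of immune activation in the level of Npc2e was not tested.

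**Figure D4:**
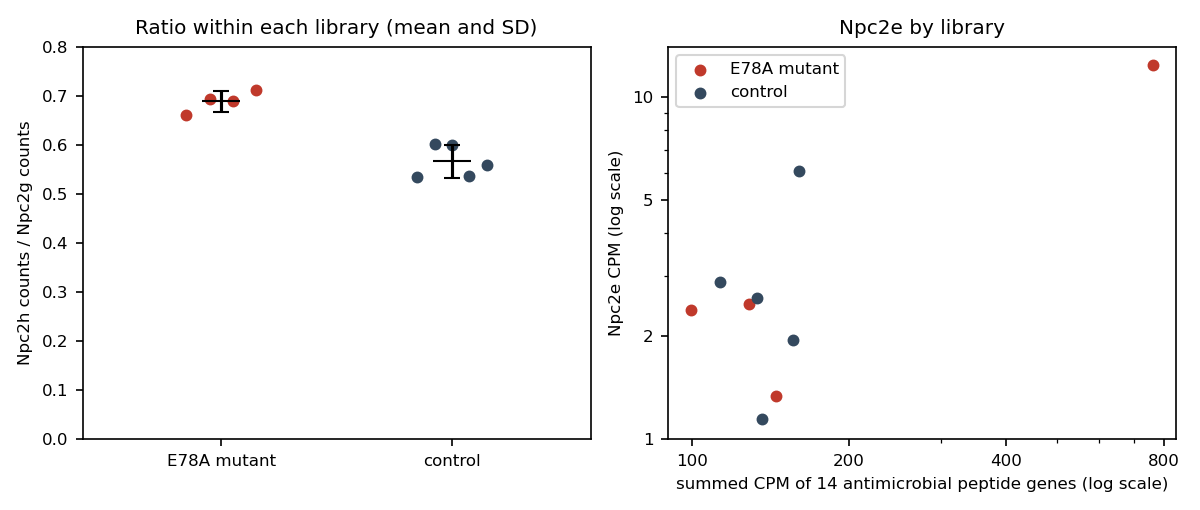
Left, counts of Npc2h over counts of Npc2g in each E78A mutant and control library, with the mean and SD; the 4 mutant ratios (0.660 to 0.712) lie above the 5 control ratios (0.536 to 0.602). Right, CPM of Npc2e against the summed CPM of 14 antimicrobial peptide genes on log axes, where mutant replicate 1 lies alone at the upper right and the other 8 libraries form 1 group.

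Levels of different genes were compared per kilobase of exon, from annotated exon lengths of 651 bases for Npc2a to 5198 bases for Npc1a. Npc2g had the highest level in both groups, 291 ± 39.5 CPM per kilobase in the mutants (SD, n = 4) and 298 ± 32.5 in the controls (SD, n = 5). Npc2h followed at 163 CPM per kilobase in the mutants and 137 in the controls, Npc2b at 130.4 in the mutants and 122 in the controls, and Npc2a at 114 in the mutants and 83.0 in the controls. Thus 4 small Npc2 genes were above Npc1a, which had 37.6 ± 2.13 CPM per kilobase in the mutants (SD, n = 4) and 40.5 ± 1.55 in the controls (SD, n = 5).

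Below Npc1a came Npc2f, at 32.7 CPM per kilobase in the mutants and 33.9 in the controls, and Npc2d, at 24.0 in the mutants and 34.05 in the controls. Npc1b reached 7.38 CPM per kilobase in the mutants and 6.36 in the controls, and Npc2e 7.05 in the mutants and 4.43 in the controls. Npc2c, at 1.37 in the mutants and 2.55 in the controls, closed the order. The highest mean was 212 times the lowest in the mutants and 117 times in the controls. Neighbours in the order overlapped in their libraries for Npc2b with Npc2a and Npc1b with Npc2e among the mutants. Among the controls Npc2h overlapped with Npc2b, Npc1a with Npc2d, Npc2d with Npc2f, Npc1b with Npc2e and Npc2e with Npc2c, so the order of those genes does not go beyond their spread. Per kilobase of coding sequence in place of exon, Npc2e passed Npc1b in the mutants, and Npc2b passed Npc2h and Npc2f passed Npc2d in the controls.

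**Figure D5:**
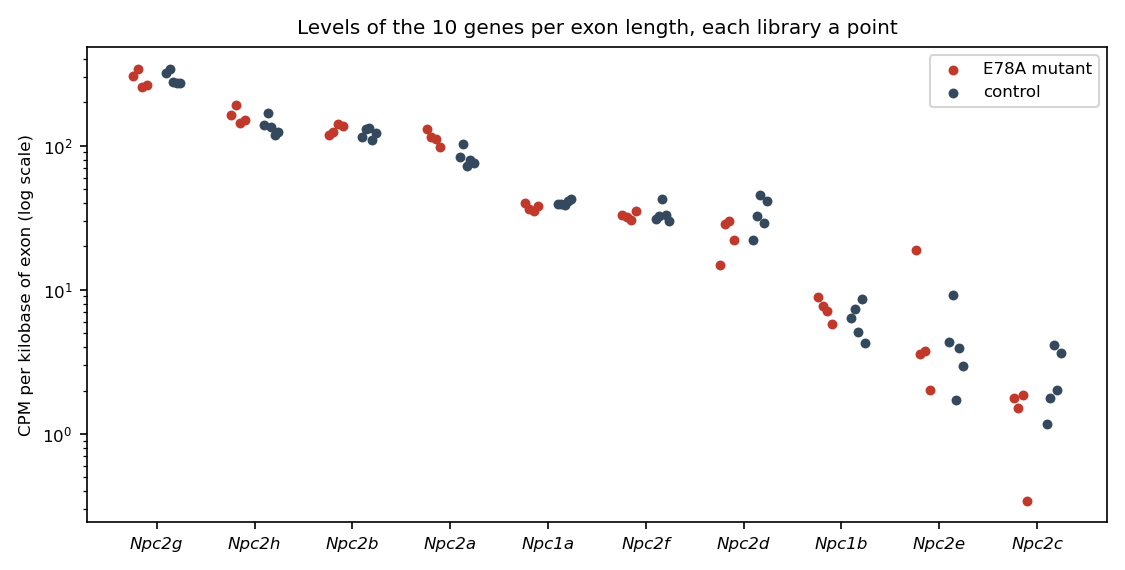
CPM per kilobase of exon of the 10 genes on a log axis, ordered by their mean over libraries, with E78A mutant libraries left of control libraries in each column and each point a library. Npc2g is highest at 291 CPM per kilobase in the mutants and 298 in the controls, and Npc2c lowest at 1.37 in the mutants and 2.55 in the controls.

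For members at a mean of at least 5 CPM, the tested genes most like each one in their variation within groups were found by Pearson correlation of log2 CPM over the 9 libraries, out of 10515 genes. Npc2a was closest to VhaPPA1-1, a subunit of the proton pump that acidifies lysosomes, at r = 0.99, and to CG8243 at 0.97. Npc2g was closest to Rpi (0.99) and CG2862 (0.98), and Npc2h to CG30499 (0.98) and the superoxide dismutase gene Sod1 (0.98). For Npc1b, CG15126 (0.98) and CG43729 (0.95) came first, and for Npc1a Lam, a nuclear lamin (0.95), and bbx (0.94). The 2 closest to Npc2b were Cyp4e1 (0.95) and BI-1 (0.93), those to Npc2d CG2021 (0.97) and l(1)G0156 (0.96), and those to Npc2f CG7251 (0.98) and CR43405 (0.96). Each is the top of 10515 correlations over few libraries that share replicate numbers. The fold changes need not follow: VhaPPA1-1 had a log2 fold change of -0.01.

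Other genes of the pathway were taken from lists of 7 kinds. Counts in these lists are to be read beside all tested genes, of which 0.708% were called higher and 0.927% lower. An unadjusted p under 0.05 was held by 15.1% of all tested genes. Among lysosomal enzymes and membrane proteins, 2 of 28 tested genes were called higher in the mutants and 0 lower, with a median log2 fold change of 0.035. CG15534 codes for a predicted acid sphingomyelinase, the kind of enzyme whose loss in humans gives Niemann-Pick types A and B. It was at 49.96 ± 10.8 CPM in the mutants (SD, n = 4) and 22.1 ± 6.90 CPM in the controls (SD, n = 5). Its log2 fold change was 1.18 (SE 0.21, edgeR adjusted p = 0.0134). Cln7, a lysosomal membrane protein named for a human storage disease, was at 47.3 ± 6.35 CPM in the mutants (SD, n = 4) and 34.6 ± 3.15 CPM in the controls (SD, n = 5), a log2 fold change of 0.45 (SE 0.10, edgeR adjusted p = 0.0488). For both genes no mutant library overlapped a control library. Their share of the list is to be read beside 0.708% of all tested genes called higher, and no test was made of the list. Other predicted acid sphingomyelinase genes of the list were not called. These were CG15533 (log2 fold change 0.35), CG3376 (0.11) and CG32052 (-0.15), with edgeR adjusted p from 0.569 to 0.775.

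None of the 11 tested genes of sterol ester turnover and intracellular sterol carriage was called in either direction, with a median of 0.012. Its smallest p-values were those of mag, a gut lipase that also splits cholesterol esters, at a log2 fold change of -0.55 (edgeR adjusted p = 0.325), and CG8112, a predicted sterol acyltransferase, at 0.27 (edgeR adjusted p = 0.428). Before adjustment, 1 gene of that list was under 0.05. Of 8 genes for other proteins with a sterol-sensing domain or for the processing of SREBP, the lipid-sensing transcription factor, 0 were called, with a median of 0.066. In that list Ptr, a relative of the Hedgehog receptor, had 0.52 (edgeR adjusted p = 0.147) and SREBP 0.24 (edgeR adjusted p = 0.268), the 2 genes with an unadjusted p under 0.05.

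Of the 11 genes of ecdysteroid synthesis and breakdown, 7 were high enough to test, 0 were called, and the median was -0.095. Eo, which oxidises ecdysone, had -0.29 (edgeR adjusted p = 0.574), and nvd, which makes 7-dehydrocholesterol from cholesterol at the head of that pathway, -0.46 (edgeR adjusted p = 0.674). No gene of that list was under 0.05 even before adjustment (0 of 7). The 7 nuclear receptors of sterol and lipid state also gave 0 calls and a median of 0.16. Hr96, a receptor that binds cholesterol and governs Npc1b and mag in flies, was at 0.20 (edgeR adjusted p = 0.297), and Hnf4, a fatty acid receptor, at 0.17 (edgeR adjusted p = 0.336). Before adjustment, 1 gene of that list was under 0.05.

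For the lipoprotein genes that carry sterol in blood, 0 of 7 were called, 1 had an unadjusted p under 0.05 and the median was 0.095. With the replicate block, beside shares of 2.01% lower and 1.8% higher among all tested genes, 2 of 7 were called lower and 0 higher. These were mgl, an endocytic receptor of the megalin kind, at -0.36 (edgeR adjusted p = 0.00521), beside -0.28 without the block (edgeR adjusted p = 0.246), and apolpp, the structural protein of the main lipoprotein, at -0.28 (edgeR adjusted p = 0.0304), beside -0.21 without it (edgeR adjusted p = 0.516). LpR1, a lipoprotein receptor, was at -0.21 (edgeR adjusted p = 0.377). Of 22 tested genes of bacterial recognition and the Imd pathway, 0 were called and the median was 0.15. An unadjusted p under 0.05 was held by 6 of them, beside 15.1% of all tested genes. The 2 with the smallest p-values were DptA (2.95, edgeR adjusted p = 0.182) and AttA (1.55, edgeR adjusted p = 0.226), and mutant replicate 1 held 108 CPM of DptA. Of those 6 genes, Def averaged lower in the mutants (-0.69). AttA, AttC, DptB and Dro were, like DptA, highest in mutant replicate 1, at 55.7, 225, 116 and 66.5 CPM. In these 6 lists, which held no edgeR call without the block, DESeq2 called 1 gene, Ptr, higher and 0 lower. Among all tested genes DESeq2 called 1.76% higher and 1.94% lower.

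Tissue markers give the setting of these values. Their counts are to be read beside all tested genes, of which edgeR called 0.708% higher and 0.927% lower. DESeq2 called 1.76% higher and 1.94% lower, and edgeR with the replicate block 1.8% higher and 2.01% lower. An unadjusted p under 0.05 was held by 15.1% of all tested genes. Of 16 tested midgut markers 1 was called lower, the serine protease Jon99Ciii (log2 fold change -1.11, edgeR adjusted p = 0.0494), and the next was Muc68D (-0.51, edgeR adjusted p = 0.0985). DESeq2 called these 2 midgut genes lower, 7 of the 16 had an unadjusted p under 0.05, and with the replicate block 4 were called lower and 2 higher. Malpighian tubule markers summed to 632 ± 51.1 CPM in the mutants (SD, n = 4) and 688 ± 43.3 CPM in the controls (SD, n = 5), with 1 of 9 called lower, the phosphate transporter gene NaPi-T (-0.49, edgeR adjusted p = 0.0301), ahead of Oatp58Dc (-0.28, edgeR adjusted p = 0.0697). For these tubule markers 4 of 9 had an unadjusted p under 0.05, and NaPi-T, Oatp58Dc and CapaR, 3 of 9, were called lower by DESeq2 and with the replicate block. Of 17 testis markers Mst84Db, a sperm tail gene, was called higher (0.49, edgeR adjusted p = 0.0275), as it was by DESeq2 and with the block, and sa was at -0.56 (edgeR adjusted p = 0.171). The rest of that list leaned the other way, with a positive log2 fold change for 2 of 17 genes and a median of -0.14. An unadjusted p under 0.05 was held by 4 of 17, of which can (-0.43), sa and nht (-0.40) averaged lower. Tested markers numbered 5 for fat body, 7 for hemocytes, 3 for oenocytes, 9 for muscle and 8 for neurons. For ejaculatory tissue 1 of 4 listed was tested, the only 1 whose name was matched to the annotation. For accessory gland 10 were tested, and for females 5 of 10 listed. These lists gave 0 calls by edgeR without the block and by DESeq2, with an unadjusted p under 0.05 for 1 hemocyte and 2 neuron genes. With the replicate block, edgeR called 1 fat body gene (apolpp), 1 hemocyte gene (Hml) and 1 neuron gene (cac) lower. Of those lists the genes with the smallest p-values were AkhR (-0.29) and apolpp, Sr-CI (-0.43) and Hml (-0.32), Cyp4g1 (-0.12) and FASN2 (0.13), up (0.08) and fln (-0.14), cac (-0.24) and para (-0.22), Acp26Ab (0.17) and Acp76A (-0.28), Dup99B (-0.17), and Yp1 (-0.63) and Yp3 (-0.27), as log2 fold changes. The part of tissue makeup in the levels of the Npc1 and Npc2 genes was not tested.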

How the data were processed

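Poly(A)-selected RNA from whole flies went into stranded paired-end libraries, per the labels' protocols. The submitters' processing notes name featureCounts 1.6.3, STAR 2.6.1b, DESeq2 (1.20.0, 1.22.2) and cutadapt 1.16, with the builds BDGP6 and dm6, and do not give their roles or the strand setting. The authors deposited raw counts per gene, and a table of their own comparison with log2 fold changes, standard errors and p-values under DESeq2 column names per the file headers. That table was only set beside the new fit. Normalised and regularised-log values were left unused.

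Libraries were grouped by title (4 E78A mutant, 5 control), and replicates numbered in accession order. The counts were tested by the quasi-likelihood test of edgeR 4.0.16 (R 4.3.3), with genotype as the only term, TMM scaling and the filterByExpr rule at a minimum of 10 counts. Benjamini-Hochberg adjustment ran over the 13274 tested genes, with a threshold of 0.05. Library totals ran between 16556267 and 19093675 counts. CPM use each library's counts in the tested genes, which held 99.96% of all counts, after TMM scaling, and log2 CPM a prior count of 2. The biological coefficient of variation was 15.0%. Intervals and p-values rest on the spread between libraries, and single counts carry counting error. Replicate numbers in the authors' sample sheet pair 4 mutant with 4 control libraries: deviations from group means correlated at 0.207, 0.214, 0.210 and 0.277 within pairs and at most 0.0402 otherwise. Control replicate 3 has no partner. The script was tested on simulated data.

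Exon and coding lengths came from the Ensembl 115 annotation of BDGP6, in which all 10 genes have the coordinates of the authors' Ensembl 94 sheet. The members, gene lists and markers were chosen with earlier results of these data known. Genes named are the 10 members, list members that were called or had the 2 smallest p-values, the 2 genes most correlated with a member, the nearest listed genes and called genes within 50 kb. DptA and AttC were also named, and the 14 antimicrobial peptide genes grouped, after their values were seen. DptB, Dro, Def, can and nht were named as list members with an unadjusted p under 0.05. CG15533, CG3376 and CG32052 were named as other predicted acid sphingomyelinase genes beside CG15534. As alternatives, DESeq2 1.42.0 was run, and edgeR with upper-quartile or RLE factors, with other low-count filters, without each library, by genotype tag, with the 5 libraries whose labels agree, with the replicate block and at a threshold of 0.01. Levels were also computed per coding length.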

Additional observations from a re-analysis of the deposited data

Results flagged for a closer look

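Within its group, 1 library stood far from the others for 2 of the 10 genes, in 20 groups looked at, where chance gives about 1 in 20 groups. Npc2e was at 12.5 CPM in mutant replicate 1, and at 1.34 to 2.48 CPM in the other 3 mutant libraries. Npc2f was at 30.3 CPM in control replicate 3, and at 21.5 to 23.6 CPM in the other 4 control libraries.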

How the results depend on the processing

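Upper-quartile factors, RLE factors, a filter of 1 CPM in 4 libraries and no filter left every member's direction and call as reported. The number of members called higher was 1 by DESeq2, 2 with the replicate block, and from 0 to 1 when each library was left out in turn; none was called lower. Of all tested genes, 234 were higher and 258 lower by DESeq2, 239 and 267 with the replicate block, 43 and 59 at an adjusted p under 0.01, and from 53 to 137 higher and from 76 to 144 lower with each library left out. Without mutant replicate 2, 3 or 4 there were 62, 55 and 53 higher genes, and without mutant replicate 4 76 lower genes.

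Grouping by the genotype tag, under which 4 libraries change group, edgeR called 0 genes higher and 0 lower, with 171 at an unadjusted p under 0.05, and turned the log2 fold change of Npc1a to 0.065, Npc2b to -0.14, Npc2c to 0.26 and Npc2g to 0.032, while Npc2a was at 0.11 and Npc2h at 0.022. With the 5 libraries whose labels agree, 13 genes were higher and 8 lower, and Npc2b was at -0.048 and Npc2g at 0.046. The replicate block turned Npc2f to 0.043. Leaving out each library, the log2 fold change ran from -0.50 to 1.12 for Npc2e, from -0.087 to 0.044 for Npc2f and from -0.11 to 0.026 for Npc2g. In the 16 alternatives other than the tag, Npc2a lay between 0.38 and 0.55 and was called in 3 (adjusted p from 0.00731 to 0.586), and Npc2h lay between 0.16 and 0.33 and was called in 1. The cause of these changes was not tested. With few counts, Npc2c could not be compared closely.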
